A study of Mus musculus with 35 samples.

Results

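The genes described here encode the proteins of the cytosolic ribosome. They were taken as every gene whose symbol in the array's annotation begins with Rpl or Rps followed by a digit, together with Rplp0, Rplp1, Rplp2 and Rpsa. Kinases of the Rps6k family, pseudogenes and Rps19bp1 were left out. The rule gave 71 of the 17097 genes measured, of which 43 belong to the large subunit, 25 to the small subunit and 3 to the stalk, and it used no measured change. Several ribosomal proteins, among them Rpl5, Rpl10a and Rps3, had no probe set of their own under the rule and were not analysed here as members.

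The RNA came from whole lung of adult male wild-type C57Bl/6 mice. The animals breathed styrene, a volatile aromatic hydrocarbon, or clean air once for 6 hours and were killed the next morning. Air controls are the 0 ppm group, and the exposed groups received 1, 5, 10, 20, 40 or 120 ppm. Each of the 7 groups holds 5 arrays, 35 in all, numbered by the labels as biological replicates. The titles of 1 ppm replicate 5 and 5 ppm replicate 1 carry the same animal number, 15, so it is not known whether every array stands for its own animal, and p-values measure the spread between arrays. Values are log2 signals of Affymetrix 3′ expression arrays, whose precision depends on having 5 arrays per dose.

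A ribosome is built from ribosomal RNA and one copy of most ribosomal proteins, joined into a small subunit that reads the messenger RNA and a large subunit that forms peptide bonds. The stalk, made of Rplp0 and pairs of Rplp1 and Rplp2, draws elongation factors to the large subunit. Most of these messages begin with a pyrimidine-rich stretch through which their translation is tuned by growth signals. Ribosomal proteins made in excess of the others are degraded.

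The promoters of 8 members are shown because, among members with a promoter window at hand, these genes moved far apart at 120 ppm. Rpl7, Rpl17, Rpl8 and Rpl36, which also moved far, had no window. Each window is RefSeq sequence of build GRCm38.p6, 60 bases before to 20 after the annotated start, 5′ to 3′ on the gene's strand. Capitals mark CCGGAAG, AAGATGGC (each on either strand) or a run of at least 8 bases that are C or T on the gene's strand and lie within 50 bases of the start. Runs further upstream, as in Rpsa, stay in lower case. Rpl4 lies at chr9:64173387-64178562 and its window at chr9:64173327-64173406, plus strand. Rps4x has its window at chrX:102189372-102189451, minus strand, and Rps3a1 at chr3:86142649-86142728, minus strand. The window of Rpl6 is chr5:121204441-121204520, plus strand. These 4 genes fell at 120 ppm, and their windows read as follows.
Rpl4: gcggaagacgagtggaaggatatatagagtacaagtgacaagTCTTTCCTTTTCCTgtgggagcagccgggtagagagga
Rps4x: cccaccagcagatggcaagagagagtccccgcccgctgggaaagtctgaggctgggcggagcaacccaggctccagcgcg
Rps3a1: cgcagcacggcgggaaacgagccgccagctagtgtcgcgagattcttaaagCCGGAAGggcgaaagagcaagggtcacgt
Rpl6: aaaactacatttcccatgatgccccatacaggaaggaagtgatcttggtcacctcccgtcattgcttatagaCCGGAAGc

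The next 4 rose at 120 ppm. The window of Rpsa is chr9:120127706-120127785, plus strand, and that of Rpl22l1 is chr3:28805448-28805527, plus strand. Rps10 has its window at chr17:27635225-27635304, minus strand, and Rps2 at chr17:24720003-24720082, plus strand. The annotated span of Rps2 is chr17:24718121-24721927, so its window lies inside the gene and not at the edge of that span.
Rpsa: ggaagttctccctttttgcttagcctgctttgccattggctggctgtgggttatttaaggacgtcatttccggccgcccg
Rpl22l1: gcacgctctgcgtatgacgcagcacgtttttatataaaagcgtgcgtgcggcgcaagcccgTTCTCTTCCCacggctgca
Rps10: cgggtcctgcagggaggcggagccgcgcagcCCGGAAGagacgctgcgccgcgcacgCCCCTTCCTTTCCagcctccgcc
Rps2: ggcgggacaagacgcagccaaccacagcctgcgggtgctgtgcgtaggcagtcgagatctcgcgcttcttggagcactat

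A promoter window of 250 bases before to 50 after the start was at hand for 57 of the 71 members and for 27025 genes in all. CCGGAAG, the core that ETS-family factors such as GABP recognise, was in the window of 25 of 57 members, or 43.9%, against 9.93% of all genes. AAGATGGC, part of the sequence bound by YY1, was in 5 of 57 members, or 8.77%, against 3.19% of all genes. The run of C or T within 50 bases of the start was in 48 of 57 members, or 84.2%, against 39.3% of all genes. CCGGAAG and AAGATGGC can overlap by 3 letters, and each was counted on its own.

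Members of both directions at 120 ppm held each motif. CCGGAAG was in 10 of 18 members that rose under every scaling (55.6%) and in 6 of 17 that fell under every scaling (35.3%). The run of C or T was in 16 of 18 that rose (88.9%) and in 12 of 17 that fell (70.6%), and AAGATGGC was in 1 gene of each set. The median GC content of the promoter window was 61.0% in those that rose and 56.3% in those that fell, beside 58.3% over all members. A match is a stretch of letters, not a measured binding site.

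The members were bright and steady on these arrays. In the air controls 57 of 71 had a mean above log2 12, and 67 lay above the brightest nonspecific control probe set on every array. Signals this high are near the top of the array's range, where a true change can be compressed, so the sizes of change are uncertain and levels were not compared between genes. The muscle form Rpl3l, the testis-rich Rpl39l and Rps15a lay at or below that control on all 35 arrays, and Rpl14 did so on 5. The median within-group SD was 0.0701 for the 67 members above the nonspecific controls on every array. It was 0.11 for the 346 other genes above log2 11 and 0.198 for all genes, dim ones included. Across the 30 arrays from 0 to 40 ppm, after the group means were removed, the 2211 pairs of the 67 measured members had a median correlation of 0.29 (range -0.68 to 0.88), with 78.3% of pairs above 0. These pairs share arrays and their normalisation, so the correlation is a description.

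The mean over all members was 11.93 ± 0.041 (SD, n = 5 arrays) in air controls. It was 11.85 ± 0.04 at 1 ppm and 11.9 ± 0.019 at 5 ppm. From 10 to 40 ppm it was 11.82 ± 0.033, 11.85 ± 0.031 and 11.86 ± 0.046 in order of dose, and at 120 ppm 11.65 ± 0.018. Every array at 120 ppm (11.62 to 11.67) lay below every other array (11.78 to 11.99). The other groups overlapped one another in part. The 120 ppm arrays stood apart in other ways too. Their upper quartile of all genes was 6.33 to 6.78, against 6.9 to 7 on the other 30 arrays, their polyadenylated spike-in controls read 7.93 to 8.81 against 6.1 to 7.06, and their nonspecific controls averaged 3.56 to 3.77 against 3.2 to 3.39. The 3′ minus 5′ signal of Actb was 0.12 to 0.19 at 120 ppm and 0.14 to 0.31 elsewhere. The part of these array-wide differences in the changes of single members was not tested, and the 120 ppm counts are given under other scalings as well.

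A few arrays also carried liver transcripts. The mean of 5 hepatocyte markers was 9.19 in 0 ppm replicate 3, 8.08 in 0 ppm replicate 4, 9.56 in 1 ppm replicate 2 and 8.58 in 20 ppm replicate 2, and at most 5.74 on the other arrays. Alb, the albumin gene, read 11.19 and 10.47 on those control arrays. Cardiac muscle markers varied from 6.27 to 11.29 over the series. A fit without the 4 arrays high in liver transcripts was added after the data were seen, and it leaves 3 of the 5 controls. Against air it called 7, 1, 3 and 57 members at 10, 20, 40 and 120 ppm, where all arrays gave 19, 5, 9 and 60. It called 52 at 120 against 40 ppm, 1 at 40 against 10 ppm and 11 for the dose slope, where all arrays gave 54, 2 and 19. Calls over all genes dropped as well. At 10 ppm this fit gave 627 higher and 774 lower, where all arrays gave 884 and 1132. At 20 ppm it gave 677 and 649 against 1102 and 1153, and at 40 ppm 803 and 446 against 1315 and 862. For the slope it gave 1821 and 1740 against 2250 and 2198. The members' median at 10 ppm was -0.13 in this fit and -0.11 with all arrays.

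**Figure D1:**
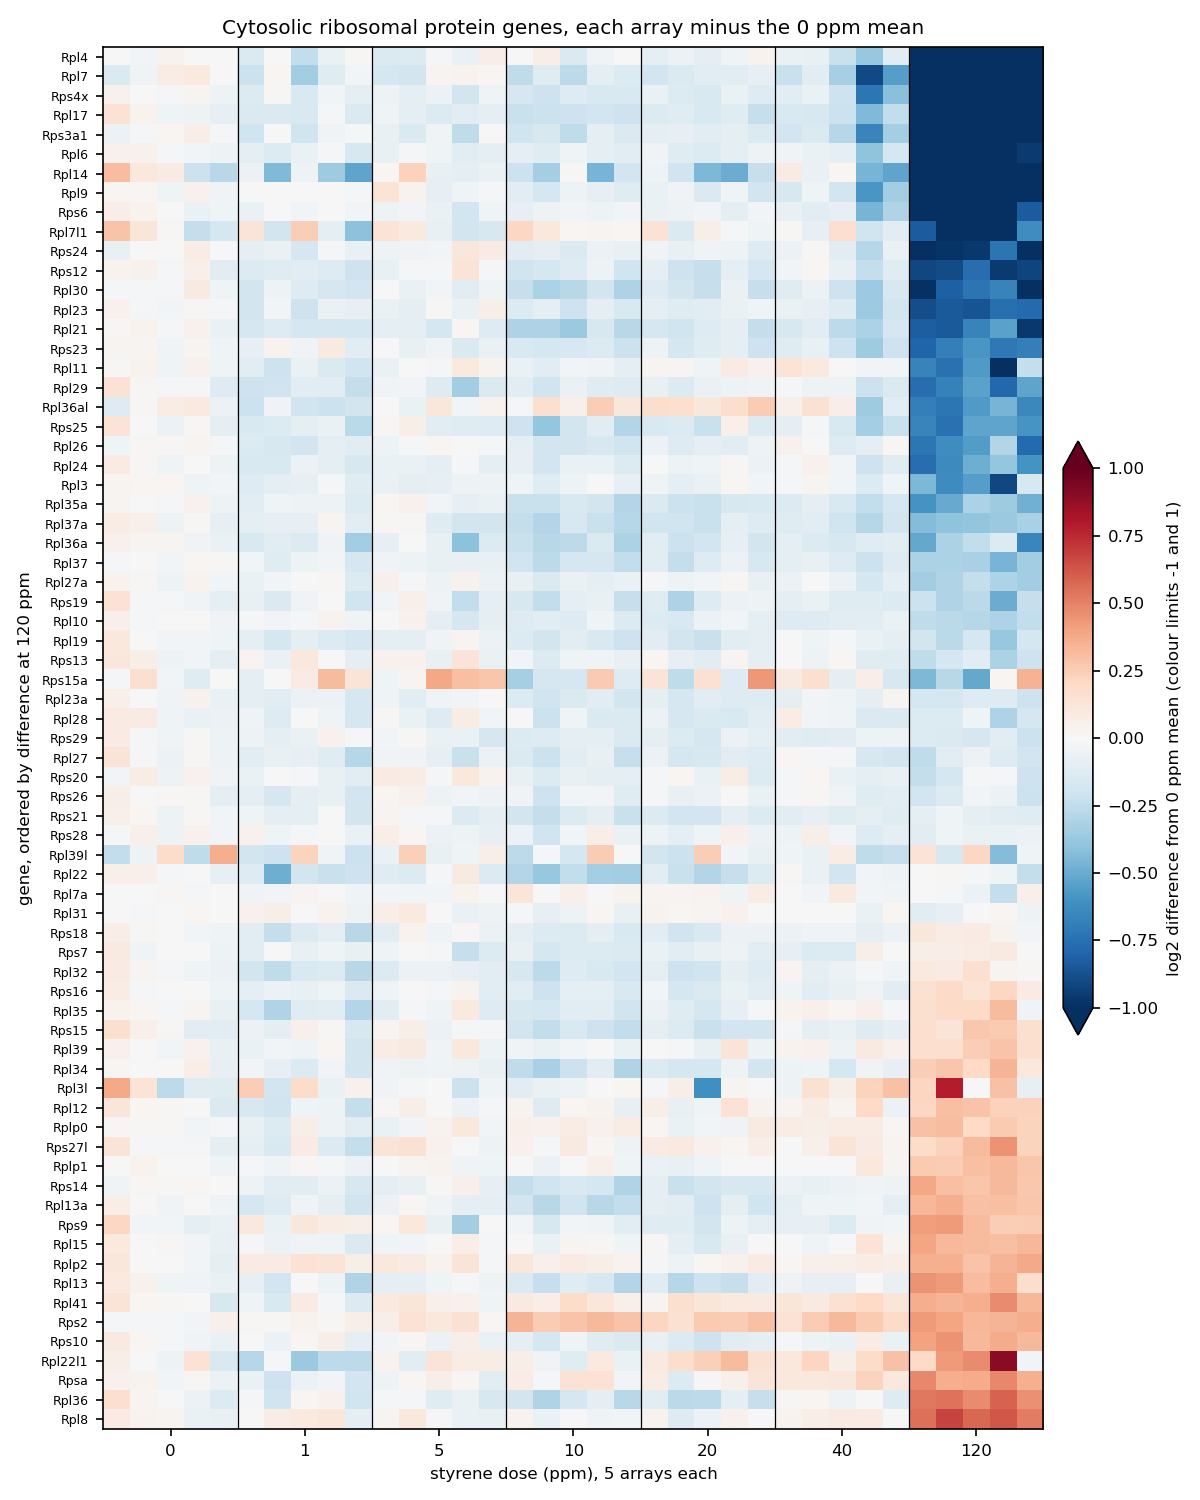
Each row is 1 of the 71 genes, ordered by its difference at 120 ppm, and each column 1 of the 35 arrays, grouped by styrene dose in ppm. Colour is the log2 signal minus the gene's mean over the 5 air controls, clipped at -1 and 1. The 120 ppm arrays show a block of falls and a block of rises, a split whose middle genes change sign when arrays are centred on their medians. The row of Rps2 is raised from 10 ppm on, and 40 ppm replicate 4 is lowest for many of the genes at the top.

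Each dose was set against air in 1 limma fit over all 35 arrays and all 17097 genes, with Benjamini-Hochberg adjustment over all genes and a threshold of 0.05. A gene is said to have risen or fallen only past that threshold. All comparisons with air share the same 5 controls, so their values are given side by side and their agreement is not counted as support.

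No member passed at 1 ppm. The members' median difference was -0.09 and 63 of 71 lay below 0, while the median of all genes was -0.01. At an unadjusted p under 0.05, 17 of 71 members (23.9%) were counted, beside 6.96% of all genes, and 0% of all genes and 0% of the other bright genes were called in either direction. The smallest adjusted p of a member by limma was 0.323, for Rpl32, a large subunit protein, at -0.20 (SE 0.05). Rpl22, an RNA-binding large subunit protein, followed at -0.24 (SE 0.07, adjusted p = 0.328 by limma). Its 1 ppm arrays read 11.32, 10.96, 11.27, 11.23 and 11.24 and its controls 11.5, 11.5, 11.43, 11.45 and 11.37, so the groups did not overlap and the difference still missed the threshold. For Rpl35 the difference was -0.20 (SE 0.06, adjusted p = 0.457 by limma).

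No member passed at 5 ppm either, where 1.13% of all genes were called higher and 0.0234% lower, and among the other bright genes 2.02% higher and 0% lower. The median difference of the members was -0.03, and 1 of 71 (1.41%) had an unadjusted p under 0.05, beside 6.45% of all genes. The 3 smallest p-values belonged to Rpl29 (-0.14, SE 0.07), Rps2 (0.09, SE 0.05) and Rpl36a (-0.14, SE 0.08), and the smallest adjusted p by limma was 0.77.

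At 10 ppm 18 members fell and 1 rose, 14 of the falls in the large subunit and 4 in the small. Among all genes 6.62% were called lower and 5.17% higher, and among the other bright genes 13% lower and 19.4% higher, so lower calls made up 25.4% of the members and higher calls 1.41%. The median difference was -0.11 over the members and -0.02 over all genes. In bulk lung a lower signal from fewer cells of a type and from less RNA per cell cannot be told apart. The falls were small, from 0.15 to 0.32 on the log2 scale, and in 17 of 18 all 5 arrays lay below all 5 controls. Such a gap is likely in genes picked by the threshold, and it was not counted over all genes.

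Rpl22 fell furthest, by 0.32 on the log2 scale (SE 0.07, adjusted p = 0.00128 by limma). Its 10 ppm arrays read 11.16, 11.07, 11.2, 11.11 and 11.1, all below the lowest control at 11.37. The paralog Rpl22l1, which Rpl22 protein represses in mouse cells, read 10.94 at 10 ppm and 10.95 in air, a difference of -0.01 (SE 0.10) that did not pass. Rpl21 fell by 0.28, Rpl30 by 0.27, Rpl36a by 0.25 and Rpl34 by 0.24. The arrays of Rpl34 read 12.08, 12.01, 12.12, 12.22 and 12.03 at 10 ppm and 12.35, 12.34, 12.33, 12.4 and 12.25 in air. The highest exposed array thus lay just under the lowest control. Rps14, the small subunit gene lost in the 5q deletion syndrome, fell by 0.21 (SE 0.05, adjusted p = 0.00461 by limma).

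Rps2, a small subunit protein near the entry of the messenger RNA channel, was the only member that rose at 10, 20 and 40 ppm. Its arrays read 12.62, 12.62, 12.62, 12.6 and 12.68 in air and 12.97, 12.88, 12.91, 12.95 and 12.91 at 10 ppm. They read 12.84, 12.78, 12.89, 12.88 and 12.92 at 20 ppm and 12.77, 12.88, 12.95, 12.89 and 12.82 at 40 ppm. None of these 15 exposed arrays overlapped the controls. The rise was 0.30 at 10 ppm (SE 0.05, adjusted p = 0.000104 by limma), 0.23 at 20 ppm (SE 0.05, adjusted p = 0.00175) and 0.23 at 40 ppm (SE 0.05, adjusted p = 0.00183), and it kept its call under all 3 other scalings at each of these doses. Without the arrays high in liver transcripts it was 0.28, 0.24 and 0.22, still called. All 3 probe sets of Rps2 moved alike, by 0.30, 0.29 and 0.26 at 10 ppm. At 1 ppm its difference was 0.03 and at 5 ppm 0.09, and neither passed.

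The count at 10 ppm depends on the scaling and on single arrays. Of the 18 falls 6 were called without the arrays high in liver transcripts, and Rpl22 then stood at -0.33 (adjusted p = 0.00583 by limma) and Rps14 at -0.20 (adjusted p = 0.0513). With arrays centred on their medians Rpl22, Rpl37a and Rps2 remained, 3 of the 19, and a rule that also asks for a change of at least 0.322 on the log2 scale left 1 member, Rpl22. The count was 10 without 0 ppm replicate 1, 11 without the second replicate of either group, and 12 when 10 ppm replicate 5 was left out. Erythroid markers averaged 9.23 to 9.66 at 10 ppm and 9.76 to 10.07 in air, with 1 of the 3 markers called lower, and neutrophil markers averaged 5.64 to 6.99 and 6.34 to 8.24, with 1 of 4 called lower. Alveolar macrophage markers averaged 7.73 to 8.41 and 8.01 to 8.52, with 2 of 5 lower and 1 higher, and 1 of 4 fibroblast markers was higher and 1 lower. Their part in the ribosomal changes was not tested.

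At 20 ppm Rpl13, Rpl35a, Rpl37a and Rps14 fell and Rps2 rose, 5 members beside 6.74% of all genes called lower and 6.45% higher (other bright genes 10.7% and 18.5%). The falls ran from 0.16 to 0.19 on the log2 scale. Rpl37a, a large subunit zinc-finger protein, read 12.81, 12.81, 12.79, 12.92 and 12.88 at 20 ppm and 13.09, 13.06, 12.96, 13.02 and 12.93 in air, a gap of 0.01 between the nearest arrays. The count was 18 when the 120 ppm arrays were left out of the fit, 21 with array weights and 1 with centred arrays. It was 1 without 0 ppm replicate 2, 0 ppm replicate 3, 20 ppm replicate 2 or 20 ppm replicate 3, 2 without 0 ppm replicate 1 or 4, 3 without 20 ppm replicate 5 and 8 without 0 ppm replicate 5.

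At 40 ppm 8 members fell and 1 rose, beside 5.04% of all genes called lower and 7.69% higher (other bright genes 9.54% and 18.2%). Rpl7, Rps3a1, Rps4x, Rpl9, Rpl17, Rpl21, Rpl37a and Rps23 fell. Rpl7, a large subunit protein that binds RNA, fell by 0.43 (SE 0.10, adjusted p = 0.00383 by limma), the largest change of a called member below 120 ppm. Its 40 ppm arrays read 12.02, 12.13, 11.91, 11.34 and 11.69 and its controls 12.1, 12.21, 12.32, 12.34 and 12.25, so 1 exposed array lay inside the control range. Replicates 4 and 5 were the lowest.

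Those same arrays were lowest for Rps4x and Rps3a1, both small subunit proteins. Rps4x, encoded on the X chromosome, read 12.59, 12.63, 12.49, 11.98 and 12.28 at 40 ppm against 12.65 to 12.74 in air, and fell by 0.31 (SE 0.09, adjusted p = 0.0179 by limma). Rps3a1 read 12.44, 12.49, 12.35, 11.97 and 12.29 against 12.57 to 12.7, and fell by 0.32 (adjusted p = 0.00301 by limma). In both genes the groups did not overlap, and the spread at 40 ppm was wide.

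Without 40 ppm replicate 4 the calls numbered 3, namely Rps2, Rpl7 and Rps3a1. In that fit Rps4x stood at -0.20 (adjusted p = 0.107 by limma) and Rpl7 at -0.30 (adjusted p = 0.0238). Without 40 ppm replicate 5 the calls numbered 5. Without the arrays high in liver transcripts they numbered 3, namely Rps2, Rps3a1 and Rpl17, and Rpl7 stood at -0.37 (adjusted p = 0.0655) and Rps4x at -0.30 (adjusted p = 0.0961). Array 4 did not stand apart in its upper quartile of all genes, 6.94, or its spike-ins, 6.65. Rpl7, Rps3a1, Rps4x, Rpl9 and Rpl17 kept their falls, and Rps2 its rise, under all 3 other scalings. At 40 ppm 2 of 4 fibroblast markers were lower, 2 of 5 alveolar macrophage markers lower and 1 higher, and 1 marker lower in each of the erythroid, T cell and lung tissue lists. Their part was not tested, and the T cell markers lay at or below the nonspecific controls on 27 to 35 of the 35 arrays.

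**Figure D2:**
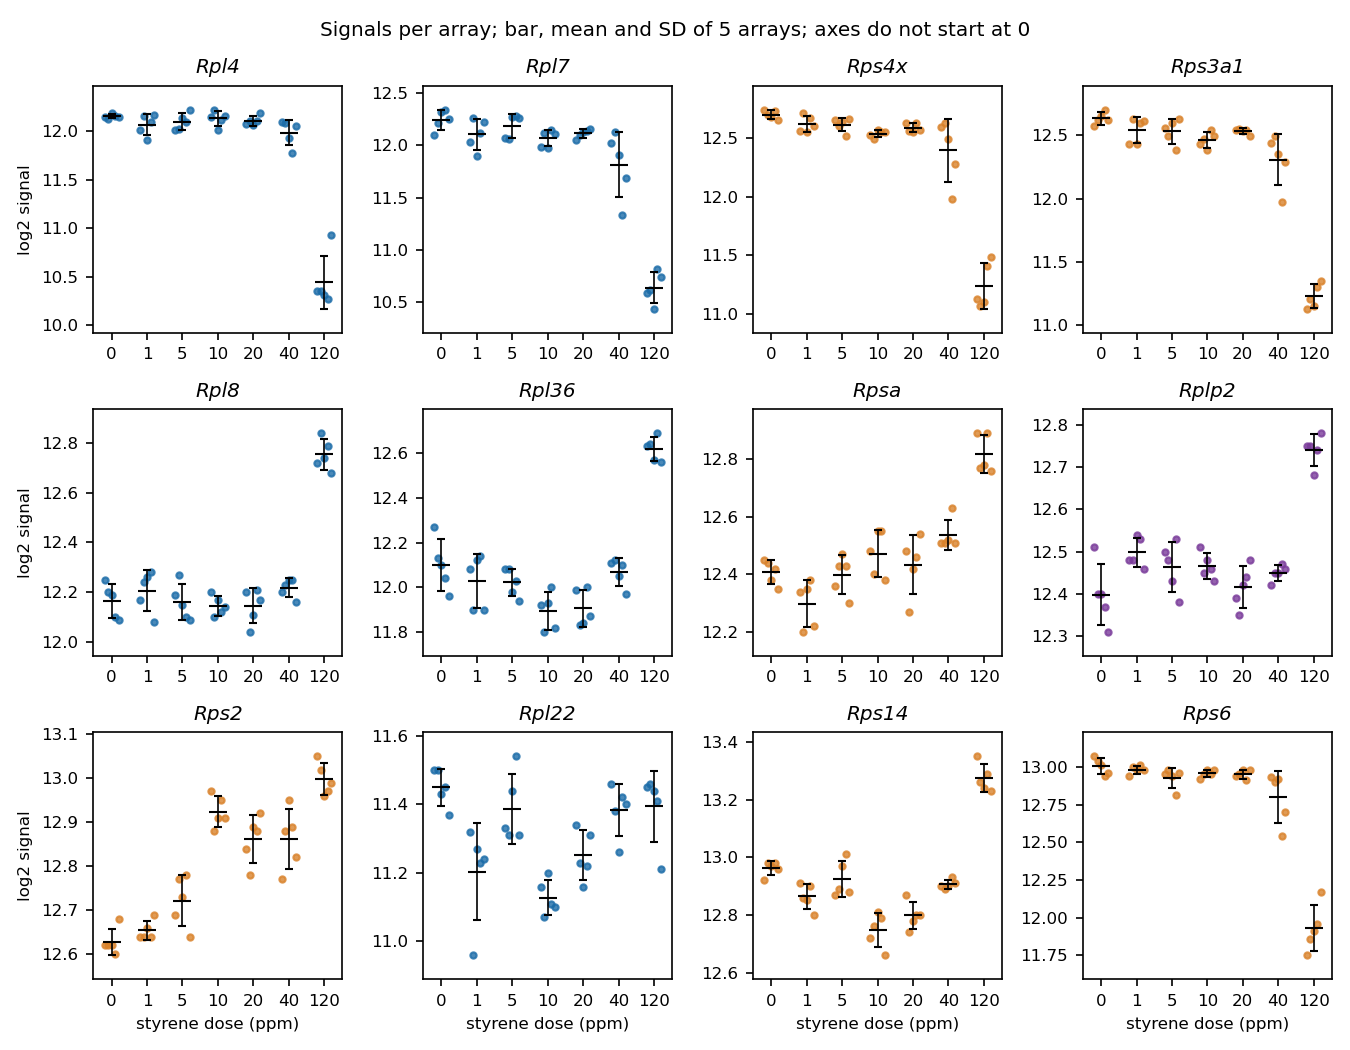
Log2 signal of 12 genes in every array by styrene dose in ppm, with the mean and SD of 5 arrays per dose as bars (blue large subunit, orange small subunit, purple stalk; axes do not start at 0). Rpl4, Rpl7, Rps4x, Rps3a1 and Rps6 drop at 120 ppm, where Rpl8, Rpl36, Rpsa, Rplp2 and Rps14 rise, under each scaling tried. Rps2 is raised from 10 ppm, and Rpl22 and Rps14 are lowest at 10 ppm.

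A direct comparison of 40 with 10 ppm was added after the data were seen. In it 2 members were higher at 40 ppm and 0 lower, beside 4.25% of all genes higher and 1.64% lower (other bright genes 6.65% and 3.76%), and 15 members (21.1%) had an unadjusted p under 0.05, as did 19.6% of all genes. The members called were Rpl22 (0.26, SE 0.07, adjusted p = 0.0203 by limma) and Rpl13a (0.18, SE 0.05, adjusted p = 0.0331). Neither passed with centred arrays, and no member was called without 10 ppm replicate 2, 40 ppm replicate 1 or 40 ppm replicate 4. Without 10 ppm replicate 5, 40 ppm replicate 2 or 40 ppm replicate 3 the count was 1.

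A slope on log2(dose + 1 ppm) over the 30 arrays from 0 to 40 ppm was past the threshold in 19 members, 15 falling and 4 rising, beside 12.9% of all genes falling and 13.2% rising (other bright genes 19.4% and 28%). The rising members were Rps2, with a slope of 0.053 log2 units for each doubling of dose + 1 (adjusted p = 2.28e-05 by limma), Rpl22l1 at 0.056 (adjusted p = 0.00251), Rpl41 at 0.031 (adjusted p = 0.00737) and Rpsa at 0.030 (adjusted p = 0.021). Rpl22l1 means ran from 10.95 in air to 11.15 at 20 ppm and 11.13 at 40 ppm, and no single dose below 120 ppm passed for it. The falling members with the smallest p were Rps23, Rpl17, Rpl37a, Rpl35a and Rpl9, with slopes from -0.034 to -0.044. Under all 4 scalings 3 rising and 10 falling members kept their call, and Rpsa was not among them. Genes that kept their call were not counted over all genes.

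At 120 ppm the members split. Of 71, 38 fell and 22 rose, in a comparison where 31.9% of all genes were called lower and 42.9% higher (other bright genes 45.4% and 39.3%). The members' median was -0.16 and that of all genes 0.15. The share of members called was thus 53.5% lower and 31% higher. Changes were larger than at any lower dose. As deposited, 10 members fell by at least 1 on the log2 scale and 0 rose by as much. Among the 10 was Rpl14, which was not above the nonspecific controls at 120 ppm. In 35 of the 38 falls and 19 of the 22 rises no array overlapped the controls. Overlap was looked at only among called members, where a gap is likely, and was not counted over all genes.

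The direction of many members at 120 ppm depends on the scaling. Centring each array on its median raised the all-gene median at 120 ppm from 0.15 to 0.55, and the members' count became 40 higher and 23 lower. With each array's trend over signal level removed it was 27 higher and 29 lower, and with quantile normalisation repeated 23 and 36. Over all genes centring gave 10650 higher and 4044 lower, so the turn was shared by the whole array. Removal of the trend gave 5397 and 5483 of all genes, and repeated quantile normalisation 6505 and 4963. All 22 rises and 23 of the 38 falls kept their call under every scaling, a count not made over all genes. Centring and removal of the trend moved the members' median from -0.16 up to 0.24 and 0.01. These scalings could therefore cancel falls but hardly a rise, and the kept rises are no sign of firmness. These 23 comprised 16 large subunit and 7 small subunit genes, and the 22 comprised 11 large subunit, 8 small subunit and all 3 stalk genes. The other 15 members called lower kept that call on only some of the scales. Rpl10, which joins the large subunit last, read -0.27 as deposited and 0.12 after centring, and Rpl35a read -0.45 and -0.06.

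Rpl4, whose loop lines the peptide exit tunnel, fell furthest. Its arrays read 12.15, 12.13, 12.19, 12.16 and 12.15 in air and 10.35, 10.35, 10.31, 10.27 and 10.93 at 120 ppm. The groups were far apart, and 120 ppm replicate 5 was the highest exposed array. It fell by 1.72 on the log2 scale (SE 0.09, adjusted p = 5.12e-17 by limma), with -1.33 after centring. At 40 ppm its difference was -0.17 and did not pass.

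Rpl7 read 10.59, 10.62, 10.44, 10.82 and 10.74 at 120 ppm, below every other array of the series, and fell by 1.60 (SE 0.10, adjusted p = 3.73e-15 by limma). Its probe sets fell by 1.60, 1.81 and 1.42. Rpl17, which also lines the exit tunnel, fell by 1.45, and Rpl6 by 1.37. Rpl9 fell by 1.14, Rpl23 by 0.82, Rpl11, which binds Mdm2 when it is free of the ribosome, by 0.67, and Rpl3, near the peptidyl transferase centre, by 0.54. All 7 genes in this group kept the fall under every scaling.

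In the small subunit Rps4x read 11.13, 11.07, 11.1, 11.41 and 11.49 and fell by 1.46 (SE 0.09, adjusted p = 1.52e-15 by limma). Rps3a1 read 11.13, 11.21, 11.15, 11.3 and 11.35 and fell by 1.40. Rps6, the substrate of the S6 kinases, read 13.07, 13.04, 13.01, 12.94 and 12.96 in air and 11.75, 11.86, 11.91, 11.96 and 12.17 at 120 ppm. It fell by 1.08 (SE 0.07, adjusted p = 9.73e-15 by limma). Rps24 fell by 0.97, Rps12 by 0.89, Rps23 by 0.70 and Rps25 by 0.61, each under every scaling. Every 120 ppm array of Rps4x, Rps3a1 and Rps6 lay below its controls.

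As deposited, the rises were smaller. Their signals lie near the top of the array's range, where a change can be compressed, and centring moves every gene upward. Rpl8, close to the peptidyl transferase centre, read 12.25, 12.2, 12.19, 12.1 and 12.09 in air and 12.72, 12.84, 12.74, 12.79 and 12.68 at 120 ppm, a rise of 0.59 (SE 0.06, adjusted p = 5.44e-11 by limma). Rpl36 read 12.63, 12.64, 12.57, 12.69 and 12.56 against controls of 11.96 to 12.27 and rose by 0.52 (SE 0.07, adjusted p = 2.02e-08). Both were well clear of all arrays at lower doses. Rpl41, the shortest ribosomal protein, rose by 0.37, Rpl13 by 0.35 and Rpl13a by 0.32.

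Rpsa, the small subunit protein also known as the laminin receptor precursor, read 12.89, 12.77, 12.78, 12.89 and 12.76 against controls of 12.35 to 12.45 and rose by 0.41 (SE 0.06, adjusted p = 4.89e-07 by limma). Rps10, which is ubiquitinated on collided ribosomes, rose by 0.38 and Rps9 by 0.33. Rps2 rose by 0.37 and Rps14 by 0.31. On the deposited scale Rps14, Rpl13, Rpl13a, Rpl34, Rpl36 and Rps15 were therefore higher than air at 120 ppm and lower than air at 10 ppm, in comparisons that share their controls. None of these genes kept its 10 ppm fall with centred arrays. Rpl13 and Rpl36 also lost it in several fits that left out a single array, and Rps14 lost it without the arrays high in liver transcripts.

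All 3 stalk genes rose at 120 ppm and none passed at a lower dose. Rplp0 read 12.81, 12.81, 12.81, 12.77 and 12.79 in air and 13.09, 13.11, 13, 13.06 and 13.02 at 120 ppm, a rise of 0.26 (SE 0.05, adjusted p = 5.08e-05 by limma). Rplp1 rose by 0.29 and Rplp2 by 0.34. Their groups did not overlap. Rplp0 is often used as a reference gene in quantitative PCR, and its means from 0 to 40 ppm lay between 12.74 and 12.86.

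**Figure D3:**
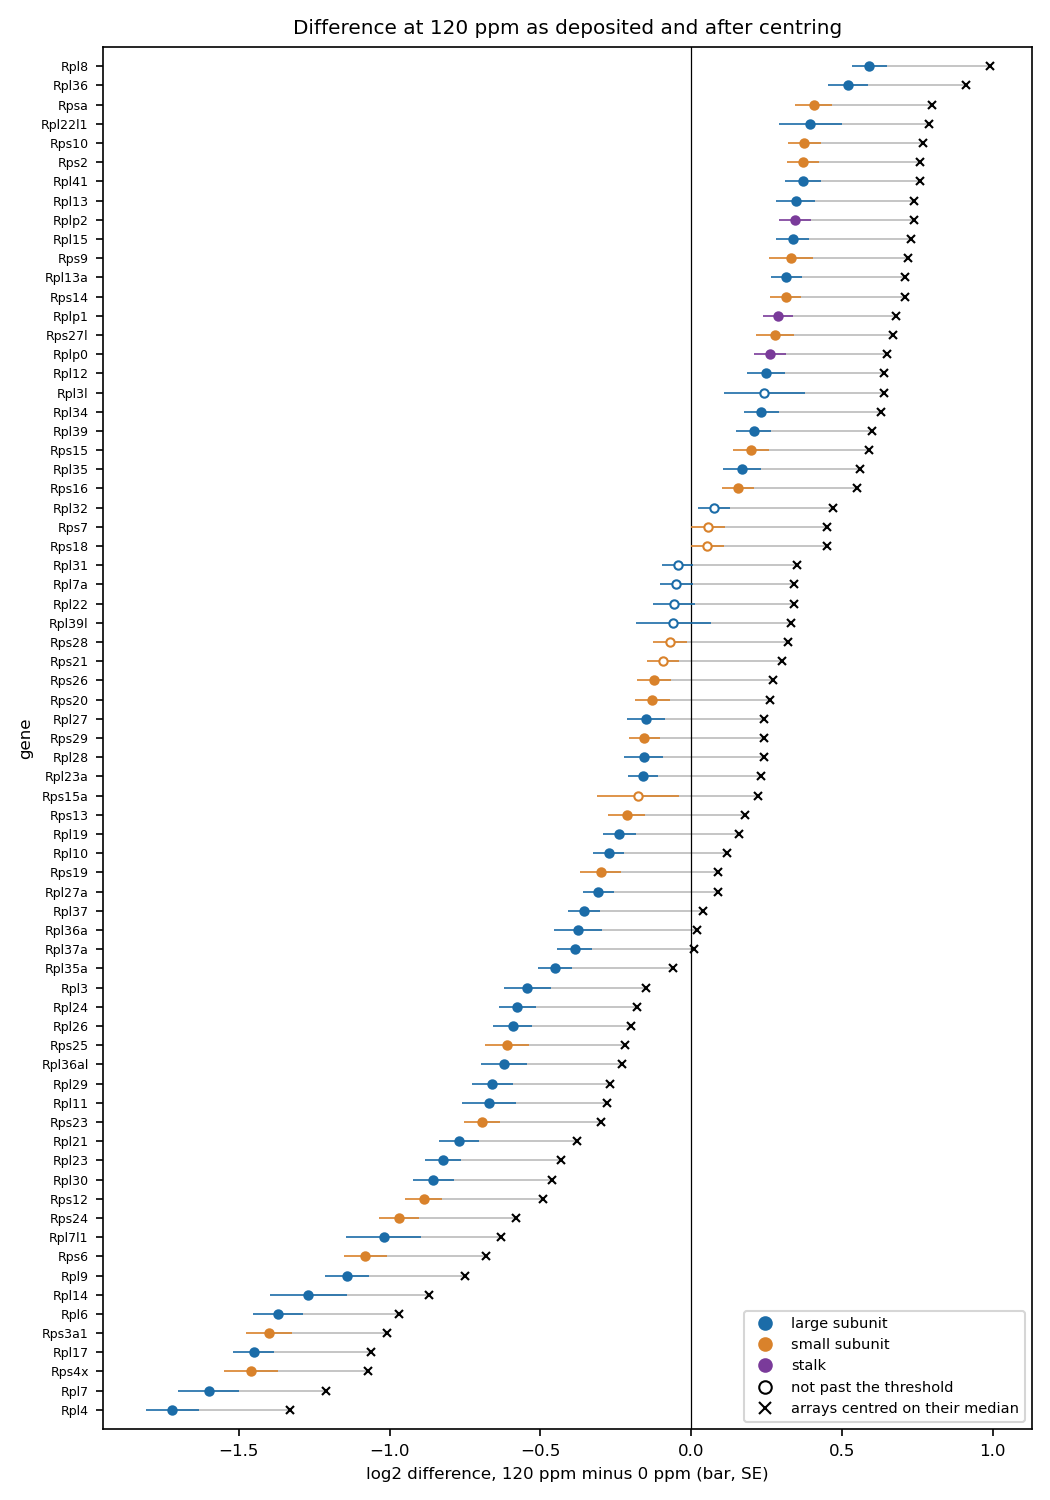
Difference at 120 ppm against air on the log2 scale for all 71 genes (coloured points with SE; open points did not pass the threshold), joined to the value after each array was centred on its median (crosses). Centring shifts every gene upward, so the genes between Rpl31 and Rpl37a change sign, while those from Rpl8 to Rps16 lie above 0 and those from Rpl35a to Rpl4 below 0 on both scales.

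Forms encoded by paralogs did not follow their parents throughout. Rpl22l1 rose at 120 ppm by 0.39 (SE 0.10, adjusted p = 0.00118 by limma), with arrays of 11.15, 11.38, 11.43, 11.86 and 10.93 against controls of 10.8 to 11.1, while Rpl22 read 11.45, 11.46, 11.44, 11.41 and 11.21 and did not pass (-0.06, SE 0.07). One Rpl22l1 array lay inside the control range. Rpl7l1 fell by 1.02 together with Rpl7. Rpl36al fell by 0.62 and Rpl36a by 0.38, the latter not after centring (0.02). Rps27l, a target of p53, rose by 0.28, and Rpl39, the parent of the unmeasured Rpl39l, rose by 0.21.

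Against 40 ppm, 33 members were lower at 120 ppm and 21 higher, beside 31.1% of all genes lower and 39.8% higher (other bright genes 47.1% and 35.8%). Rpl4 was lower by 1.55, Rpl6 by 1.21, Rpl17 by 1.21, Rpl7 by 1.18 and Rps4x by 1.15, and Rpl36 was higher by 0.55, Rpl8 by 0.54, Rpl13 by 0.40, Rps9 by 0.40 and Rps10 by 0.40. Under every scaling 16 stayed lower and 19 higher, and centring again moved the members' median up, from -0.09 to 0.31. This comparison shares no array with that of 10 ppm and air. Of the 18 members that fell at 10 ppm, 9 were lower, 6 higher and 3 not called at 120 against 40 ppm. Of the 52 not called at 10 ppm, 24 were lower and 14 higher. Neither these counts nor those kept under every scaling were made over all genes, so no share of all genes stands beside them.

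**Figure D4:**
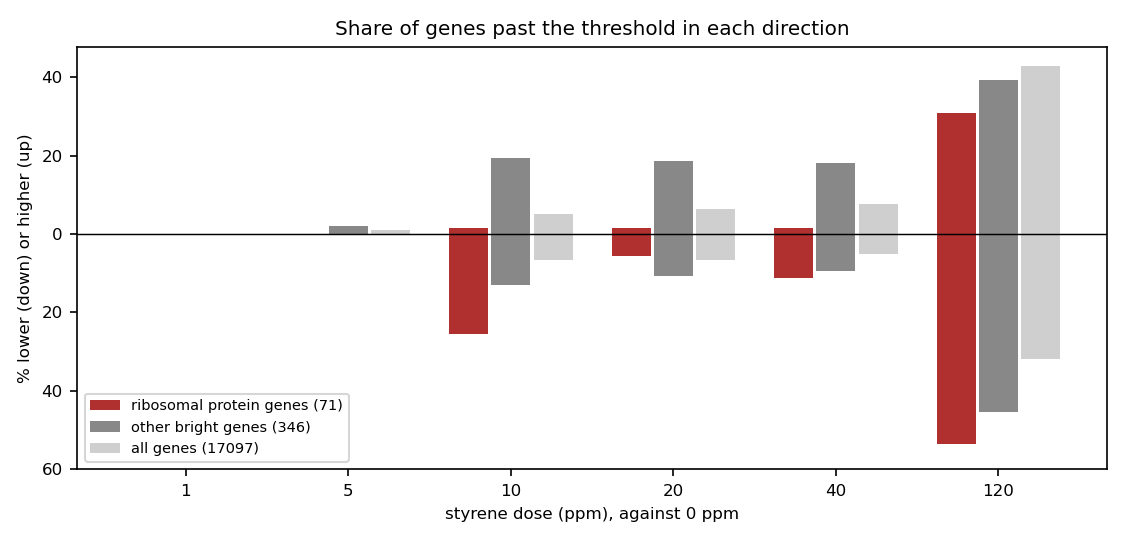
Percentage of genes past the threshold against air at each styrene dose in ppm, higher above the line and lower below it, for the 71 ribosomal protein genes, the 346 other genes above log2 11 and all 17097 genes. At 10 ppm 25.4% of the ribosomal protein genes were lower and 1.41% higher, and at 120 ppm 53.5% and 31%. After centring the 10 ppm calls fall to 2 lower and 1 higher gene, beside 872 lower and 916 higher of all genes. The 120 ppm split turns to 40 higher and 23 lower, beside 10650 higher and 4044 lower of all genes.

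Other probe sets of the same genes often gave another size of change. Among probe sets whose mean over all arrays was above the highest nonspecific control, 28 members had more than 1. In 26 of them the sets had one direction at 120 ppm, and in 2, Rpl15 and Rps21, both. A second set of Rps6 stood at -2.22 where the brightest stood at -1.08, and it was at or below the nonspecific controls on 3 arrays. A dim set of Rpl41 rose by 1.24 and the brightest by 0.37. For 3 genes the choice matters more: the dim sets of Rpl15, Rpl22 and Rpl31 stood at -2.34, -1.76 and -2.12 where the brightest stood at 0.34, -0.06 and -0.04, and these dim sets were at or below the nonspecific controls on 4, 4 and 5 arrays. The sizes are therefore inexact. The brightest set has the ending x_at for 16 members and s_at for 6, which the manufacturer gives to sets that may also bind related sequences, and ribosomal protein genes have many processed pseudogenes.

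**Figure D5:**
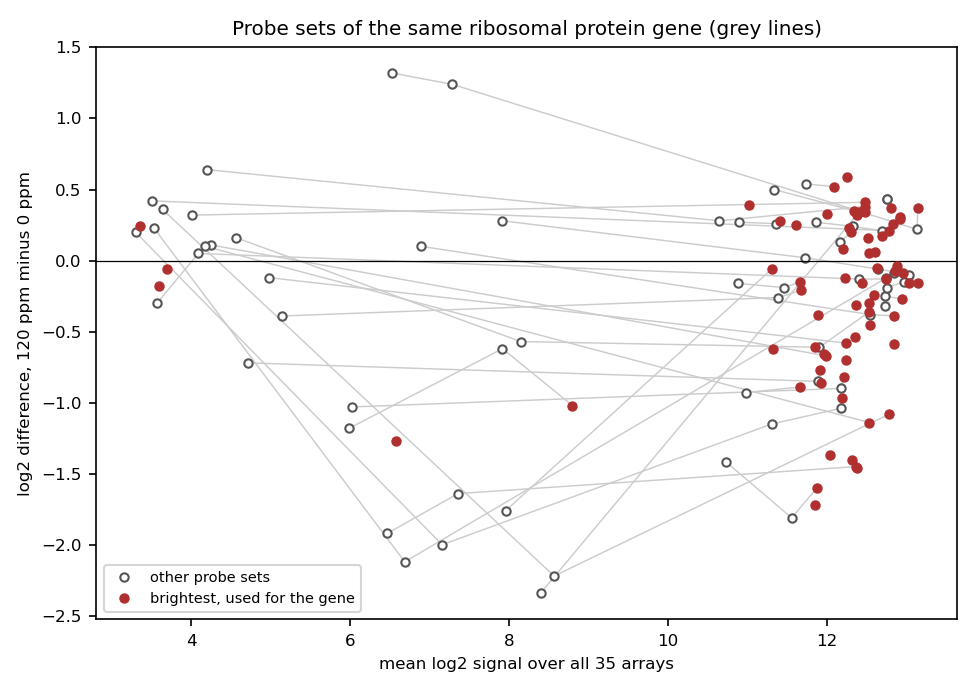
Every probe set of the 71 genes by its mean log2 signal over 35 arrays (horizontal) and its log2 difference at 120 ppm against air (vertical), as deposited; red points are the brightest set of each gene, and grey lines join sets of 1 gene. The largest falls, beyond -2, are dim sets of genes whose brightest set changed less, each at or below the nonspecific controls on some arrays; centring would move all points upward by a like amount.

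Some probe sets are assigned to a ribosomal protein gene and a neighbour or pseudogene, and were kept out of the members. One for Rpl5 and Dipk1a read 12.56 ± 0.03 (SD, n = 5) in air, 12.24 ± 0.22 at 40 ppm and 10.96 ± 0.16 at 120 ppm. A further 4 sets for Rpl14 and a pseudogene read 11.56 to 11.84 in air and 0.71 to 0.76 lower at 120 ppm, whereas the single-gene set used for Rpl14 was dim (6.91 in air) and, at 5.64 at 120 ppm, not above the nonspecific controls there. Other such sets were higher at 120 ppm. Sets for Rpl12 and Snora65 and for Rpl3 and other genes, dim in air at 5.45 and 5.43, stood at 1.27 and 1.26. Those for Rps3 and Snord15b, at 3.79 and 7.13 in air, stood at 0.59 and 0.11. A bright set for Rpl22 and another gene, 12.63 in air, stood at -0.17 at 10 ppm and -0.08 at 120 ppm. The set used for Rpl22 stood at -0.32 and -0.06. Further dim sets are not listed here, and none of the shared sets was tested.

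Other genes of protein synthesis moved in both directions as well. Fau, which encodes a ubiquitin-like protein fused to Rps30, fell at 10 ppm by 0.31 (SE 0.06, adjusted p = 0.000354 by limma) and at 20 ppm by 0.27 and rose at 120 ppm by 0.15. Of 15 translation factors measured, 1 rose and 3 fell at both 10 and 20 ppm. At 40 ppm 0 rose and 1 fell, and at 120 ppm 2 rose and 10 fell. The shares at 120 ppm were 13.3% higher and 66.7% lower, beside 42.9% and 31.9% of all genes. At 10, 20 and 40 ppm 5.17%, 6.45% and 7.69% of all genes were higher and 6.62%, 6.74% and 5.04% lower. At 120 ppm Eif2s3x fell by 1.71, Eif3e by 1.58, Eef1a1, the factor that delivers aminoacyl-tRNA, by 1.46 and Eif3h by 1.27, and Eef2, which drives translocation, rose by 0.56.

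Of 18 ribosome assembly genes with a probe set, 4 rose and 1 fell at 10 ppm. At 20 ppm 7 rose and 1 fell, at 40 ppm 6 rose and 1 fell, and at 120 ppm 7 rose and 3 fell. The shares higher were 22.2%, 38.9%, 33.3% and 38.9% in order of dose, beside 5.17%, 6.45%, 7.69% and 42.9% of all genes. The shares lower were 5.56% at 10, 20 and 40 ppm and 16.7% at 120 ppm, beside 6.62%, 6.74%, 5.04% and 31.9% of all genes. Fbl, the methyltransferase of small nucleolar RNPs, rose by 0.56 at 10 ppm (SE 0.09, adjusted p = 2.23e-05 by limma), and Rrs1 rose by 0.47. At 120 ppm Bop1 rose by 1.69, Nhp2 by 1.37 and Gar1 by 1.19. Wdr12 was called lower and was at or below the nonspecific controls on 16 arrays, so no size is given. Ncl was so on all 35 arrays, Polr1b on 34, Dkc1 on 17 and Nop58 on 16, and any call of these genes is uncertain. Nop10 fell by 0.35 at 10 ppm. Of 73 mitochondrial ribosomal protein genes, 2 rose and 3 fell at 10 ppm (2.74% and 4.11%) and 6 rose and 1 fell at 20 ppm (8.22% and 1.37%). At 40 ppm 14 rose and 1 fell (19.2% and 1.37%, beside 7.69% and 5.04% of all genes). At 120 ppm 33 rose and 30 fell (45.2% and 41.1%, beside 42.9% and 31.9% of all genes). Mrps18b rose by 0.82 at 40 ppm, and Mrps22 fell by 2.05 at 120 ppm. The scaling alternatives were not counted over these lists.

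The lung markers Sftpc, Ager and Scgb1a1 were bright in every group, with means of 13.42 to 13.92. At 120 ppm the 5 lung tissue markers averaged 12.09 to 12.37, against 12.63 to 12.68 in air, with 1 higher and 3 lower. Alveolar macrophage markers averaged 6.99 to 7.2, against 8.01 to 8.52 in air, with 4 of 5 lower. Fibroblast markers averaged 5.71 to 5.92, against 6.76 to 7.02, with 2 of 4 lower and Col1a2 not above the nonspecific controls. Erythroid markers averaged 10.07 to 10.94, against 9.76 to 10.07, with 2 of 3 higher. T cell markers (1 higher and 2 lower of 5, Cd8a not above the controls), B cell markers (2 higher and 1 lower of 4, Pax5 not above the controls) and neutrophil markers (0 called of 4, Cxcr2 not above the controls) had array ranges that overlapped air. Cd3e, Cd3d, Cd3g and Cd4 were also at or below the controls on 32, 27, 27 and 34 of the 35 arrays. Cd79a was so on 26, Ms4a1 on 17, Csf3r on 32, the erythroid Slc4a1 on 27 and the macrophage gene Pparg on 23. Calls of these markers rest on signals near the floor. The part of these cell types in the ribosomal changes at 120 ppm was not tested.

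The genes whose signal ran most like the mean of the 71 members over all 35 arrays were Sem1 (Pearson r = 0.957), Mrps33 (0.955), Snrpg (0.955), Eola1 (0.952) and Ggact (0.949). The arrays share their normalisation, and the 120 ppm group sets most of the range, so these are descriptions.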

How the data were processed

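The labels describe RNA from whole lung on Affymetrix HT MG-430 PM arrays. The authors deposited log2 signals for each probe set, and per the submitters' processing notes RMA and Partek were used; no version or setting is given in these sources. Of 45141 probe sets, 28898 were assigned to a single gene by the platform annotation, and the brightest per gene gave 17097 genes. The deposited values were kept as they are. One limma fit (version 3.58.1, R 4.3.3) over 35 arrays had 28 residual degrees of freedom, with Benjamini-Hochberg adjustment over all genes, and was tested on simulated data. Other scalings were centring of arrays on their medians, repeated quantile normalisation and removal of each array's trend over signal level. Members and lists were chosen with earlier results of these data known.

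Named members were up to 5 higher and 5 lower with the largest change in each comparison (for the slope, the smallest p), the 3 with the smallest p where none was called, the stalk genes, Rpsa, Rps6, paralogs with their parents, and the brightest and dimmest member; up to 4 called genes came from each other list. The alternative without arrays high in hepatocyte markers (mean above log2 6) was added after seeing the data. Other members were named after their values were seen. The numbers of the replicates were not used to pair the samples. Over 105 pairs of arrays with the same number the correlation of deviations ran from -0.51 to 0.64, with 53 over 0.1. Its median was 0.11, against -0.03 for pairs with different numbers, so some shared structure by number is possible. Counts with the number as a block are given below.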

Additional observations from a re-analysis of the deposited data

Results flagged for a closer look

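Among 294 dose groups of the named members and of the mean over all members, 19 held an array whose gap to the nearest other array passed Dixon's critical value for 5 samples. Chance gives about 1 in 20. At 120 ppm these were replicate 5 of Rpl4 (10.93, others 10.27 to 10.35), replicate 5 of Rpl22 (11.21, others 11.41 to 11.46) and replicate 4 of Rpl41 (13.52, others 13.38 to 13.41). At 40 ppm they were replicate 4 of Rplp1 (13, others 12.9 to 12.92) and of Rpsa (12.63, others 12.51 to 12.52), and replicate 5 of Rplp0 (12.82, others 12.86 to 12.87) and of Rpl10 (12.98, others 12.92 to 12.93). At 20 ppm they were replicate 5 of Rpl17 (12.46, others 12.54 to 12.57) and replicate 3 of Rpl3l (2.71, others 3.31 to 3.38), a gene not above the nonspecific controls.

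At 10 ppm replicate 4 of Rpl10 stood at 13 (others 12.91 to 12.93). At 5 ppm replicate 4 was low for Rps6 (12.81, others 12.94 to 12.98) and Rpl3l (3.11, others 3.28 to 3.33). At 1 ppm replicate 4 was high for Rpl10 (13.08, others 13.01 to 13.03), Rpl37a (13.04, others 12.9 to 12.93) and Rpl17 (12.68, others 12.54 to 12.55). Replicate 2 at 1 ppm was high for Rpl36al (11.37, others 11.19 to 11.22) and low for Rpl22 (10.96, others 11.23 to 11.32). In air replicate 4 was high for Rpl30 (12.26, others 12.13 to 12.16) and replicate 1 for Rps9 (12.2, others 11.9 to 11.97).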

How the results depend on the processing

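Counts of members past the threshold were 19, 5, 9 and 60 at 10, 20, 40 and 120 ppm, 54 at 120 against 40 ppm, 2 at 40 against 10 ppm and 19 for the slope. With a change of at least 0.322 on the log2 scale also required they were 1, 0, 2, 38, 30, 0 and 0. With trended and robust variances they were 29, 18 and 16 at 10, 20 and 40 ppm and 6 at 40 against 10 ppm; with array weights 30, 21, 16 and 8; with only the groups compared 12, 3, 3 and 1. Centring gave 3 at 10 ppm, 1 at 20 ppm and 0 at 40 against 10 ppm, and removal of the level trend gave 10 at 20 ppm and 0 at 40 against 10 ppm. At 20 ppm the mean of all probe sets gave 12, the dimmest set 8, and leaving out genes below the median level 14. At 40 against 10 ppm the dimmest set gave 1 and leaving out genes below the median level 4. Chosen after seeing the data, fits without 120 ppm replicates 4 and 5 gave 17 at 20 ppm and 5 at 40 against 10 ppm, and without the 120 ppm group 18 and 5; without the 4 arrays high in liver transcripts counts were 7, 1 and 3 at 10, 20 and 40 ppm, 1 at 40 against 10 ppm and 11 for the slope. The slope gave 12 on linear dose and 51 with 120 ppm included. Leaving out 1 array at a time gave 10 to 19, 1 to 8, 3 to 11 and 57 to 60 at 10, 20, 40 and 120 ppm, 51 to 58 at 120 against 40 ppm, 0 to 2 at 40 against 10 ppm and 16 to 20 for the slope. With the replicate number as a block, counts were 17, 6 and 9 at 10, 20 and 40 ppm, 60 at 120 ppm, 54 at 120 against 40 ppm and 18 for the slope. Of the values of named members under the alternatives, 27 changed sign while past the threshold in the main fit, the alternative or both. A further 308 lost their call, 168 gained one and 9401 did neither. Sign changes of values called in neither fit were not counted. The dimmest sets of Rps6 and Rpl9 were at or below the nonspecific controls on all 35 arrays. At 120 ppm the dimmest probe set gave Rps6 0.362, Rpl37a 0.102 and Rpl9 0.0967, and centring gave Rpl39l 0.335, Rpl10 0.121, Rpl22 0.337, Rpl36a 0.0184 and Rpl37a 0.00737. At 120 against 40 ppm the mean of all probe sets gave Rpl22 -0.58, the dimmest set Rps6 0.0545, Rpl22 -1.17, Rpl37a 0.29 and Rpl9 0.155, centring Rpl10 0.236, Rpl36a 0.146, Rpl35a 0.104 and Rpl37a 0.189, and removal of the level trend Rpl10 0.0177. The slope with the dimmest set was 0.0435 for Rps6 and 0.00569 for Rpl9, and with 120 ppm included -0.0994 for Rpl7l1, -0.0484 for Rpl36al, 0.0357 for Rpl13, 0.0306 for Rps14, 0.0512 for Rpl36, 0.0336 for Rps10 and 0.0339 for Rpl13a. The causes were not tested.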
